A study of Mus musculus with 20 samples.

Results

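The collagen genes of primary fibroblasts cultured from mouse embryos (MEFs) were examined on 1-colour Affymetrix arrays in E2F4 null and wild type cultures. Members were the genes whose symbol in the platform annotation is Col, a number, a and a number, each represented by its brightest probe set. There were 36 such genes, with 58 probe sets, among 12393 genes with probe sets of 1 symbol. The fibroblasts came from embryos of 13.5 days post coitum, 5 of them E2F4 null with 2 cultures each and 3 of them wild type with 3, 3 and 4 cultures. Each of the 20 cultures was hybridised to 1 array. Several cultures shared an embryo, so the embryo was the replicate, with 5 null and 3 wild type replicates. Embryo and culture were taken from the first and second number of each sample title. The labels are silent on litter, strain, sex, passage number and scan batch, so a difference between embryos and a difference in how their cultures were handled cannot be told apart.

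Most collagens are secreted proteins of the extracellular matrix, in which chains with a repeated glycine motif wind into a triple helix. Fibril-forming collagens pack into the fibres that give skin, tendon and bone their strength. Type IV collagen builds the sheet of basement membranes, type VI collagen makes beaded filaments around cells, and smaller members decorate fibrils or anchor membranes. Fibroblasts are the main makers of the fibrillar types, and many triple helices combine chains of more than 1 gene. E2F4 is best known as a repressor of cell cycle genes, which it binds in complexes with pocket proteins.

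Col4a1 with Col4a2, and Col6a1 with Col6a2, are neighbouring genes whose chains share a triple helix. Their promoter windows are shown because each pair varied between embryos in the same order. Such an order was not particular to neighbouring genes, as Col7a1 on chromosome 9 ordered the embryos nearly as Col4a1 did. No share of all gene pairs with such an order was computed, and a part of the promoters in it was not tested. The windows are RefSeq sequences of build GRCm38.p6, from 250 bases before to 50 bases after the annotated transcript start, written 5′ to 3′ on the strand of the gene. The array files name no build, and the windows were used for sequence alone. Col4a1 (chr8:11312777-11313076, minus strand) and Col4a2 (chr8:11312555-11312854, plus strand) lie head to head with starts 21 bases apart. Each start lies inside the other gene, so the annotated transcripts overlap at their 5′ ends. Capitals mark the 78 bases that both windows hold, read from opposite strands, which include transcribed bases of both genes. Col6a1 (chr10:76725995-76726294, minus strand) and Col6a2 (chr10:76623355-76623654, minus strand) run in the same direction with starts 102.6 kb apart. In these windows capitals mark each match of the CT element CCTCCC on either strand, of which there were 7 and 5.
Col4a1: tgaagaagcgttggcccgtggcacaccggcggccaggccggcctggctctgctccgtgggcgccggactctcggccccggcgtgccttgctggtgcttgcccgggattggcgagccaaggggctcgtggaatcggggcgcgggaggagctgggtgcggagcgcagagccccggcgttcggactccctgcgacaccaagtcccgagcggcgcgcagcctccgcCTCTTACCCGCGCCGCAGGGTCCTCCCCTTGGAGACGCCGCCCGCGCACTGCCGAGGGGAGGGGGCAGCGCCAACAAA
Col4a2: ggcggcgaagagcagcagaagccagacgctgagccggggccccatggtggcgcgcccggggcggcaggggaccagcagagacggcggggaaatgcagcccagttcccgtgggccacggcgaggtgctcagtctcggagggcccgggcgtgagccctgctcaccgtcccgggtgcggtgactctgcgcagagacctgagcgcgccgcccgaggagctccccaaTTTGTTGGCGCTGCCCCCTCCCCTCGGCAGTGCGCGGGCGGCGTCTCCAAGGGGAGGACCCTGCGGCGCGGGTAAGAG
Col6a1: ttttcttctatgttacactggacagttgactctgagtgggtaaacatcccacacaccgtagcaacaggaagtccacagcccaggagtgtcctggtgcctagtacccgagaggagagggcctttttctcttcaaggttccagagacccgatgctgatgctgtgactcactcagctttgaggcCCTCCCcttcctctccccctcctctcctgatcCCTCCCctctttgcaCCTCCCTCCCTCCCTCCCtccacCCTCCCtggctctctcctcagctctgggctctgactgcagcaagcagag
Col6a2: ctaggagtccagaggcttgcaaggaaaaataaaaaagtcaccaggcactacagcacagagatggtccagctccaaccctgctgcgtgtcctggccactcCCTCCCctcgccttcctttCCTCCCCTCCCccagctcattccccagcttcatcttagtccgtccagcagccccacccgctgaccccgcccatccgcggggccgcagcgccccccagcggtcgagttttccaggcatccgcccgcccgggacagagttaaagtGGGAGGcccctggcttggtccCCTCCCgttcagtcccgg
The promoter table held 30 windows for 27 of the 36 genes. CCTCCC, searched on both strands, was present in 23 of the 30 windows (76.7%), against 42.4% of all 32851 windows in the table. The GC box GGGCGG was in 17 (56.7%, against 35.7%), the CCAAT box in 12 (40%, against 37.4%) and TATAAA in 5 (16.7%, against 13.6%). The E2F letters TTTCGCGC or TTTGGCGC were in 0 of the 30 windows, against 0.813% of all windows. At that share 0 of 30 is the likely count for any set of windows, so the search cannot set collagen promoters apart. GGGCGG and CCTCCC can overlap in part, both are rich in G and C, and the windows were not matched for base composition. The windows are also not independent. The bases shared by the Col4a1 and Col4a2 windows hold both CCTCCC and GGGCGG and are counted in each, and some genes have more than 1 window.

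The arrays had been scaled to 1 trimmed mean signal of 500.2, with median signals from 135 to 146. Across genes, r was 0.988 to 0.994 between cultures of the same embryo and 0.948 to 0.991 otherwise. E2f4, the targeted gene, gave signals of 157, 167, 156, 155 and 196 in null embryos 1 to 5, against 209, 212 and 221 in wild type embryos. The genotypes did not overlap, as for 3.71% of all tested genes with all null embryos lower, but the difference did not pass across all genes (log2 -0.35, SE 0.10; adjusted p = 0.363 by limma). The extent of the deletion is not in the labels, and signal from its 1 probe set is no check on the genotype if the probes lie outside it. Of 8 fibroblast markers all 8 were measured, and their summed signal ran from 55033 to 60427 in null embryos and from 57779 to 64026 in wild type embryos.

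The collagen classes differed in how many of their genes passed the filter on low signals. The mean signal over 20 arrays ran from 6.11 to 16108 among the 36 genes, and 10 genes lay above the 90th percentile of all genes on the array. Probe sets differ in how well they hybridise, so these signals do not rank amounts of mRNA between genes. A gene was tested where its mean signal was above the 40th percentile of all genes, at 83.2, which 20 of the 36 collagen genes passed. They were 8 of the 9 fibril-forming genes and 3 of the 6 basement membrane genes, together with Col8a1, Col12a1, Col16a1 and the beaded filament, anchoring fibril and multiplexin genes that were on the array. The 3 transmembrane genes (6.55 to 13.2) and Col26a1 (7.92) were far below the filter. The nearest genes on either side of the filter were Col15a1, inside at 124, and Col14a1, outside at 76.6.

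The 16 genes under the filter include collagens known from other tissues. They are Col9a1, Col9a2, Col9a3 and Col11a2 of cartilage, Col10a1 of hypertrophic cartilage, Col4a3, Col4a4 and Col4a6 of specialised basement membranes, Col17a1 of epithelial hemidesmosomes, and Col13a1, Col14a1, Col19a1, Col20a1, Col22a1, Col25a1 and Col26a1. Of these, 14 stayed below 110 on every array, and the highest single value was 145. The deposited values carry no detection calls, so a low signal cannot be separated from background. Of 6 chondrocyte markers 2 passed the filter, Sox9 and Acan. The 6 summed to 263 to 373 in null embryos and to 388 to 430 in wild type embryos, without overlap, and no background share was computed for sums. The 4 osteoblast markers summed to 108 to 146 in null and 130 to 150 in wild type embryos. None of the 5 endothelial markers passed the filter. The 7 epithelial markers summed to 458 to 787 in null embryos and 351 to 598 in wild type embryos, with Krt18 and Krt19 as the 2 that passed. Of 5 macrophage markers 4 passed, with sums of 578 to 1404 in null embryos and 661 to 1024 in wild type embryos. None of the marker genes passed between genotypes.

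**Figure D1:**
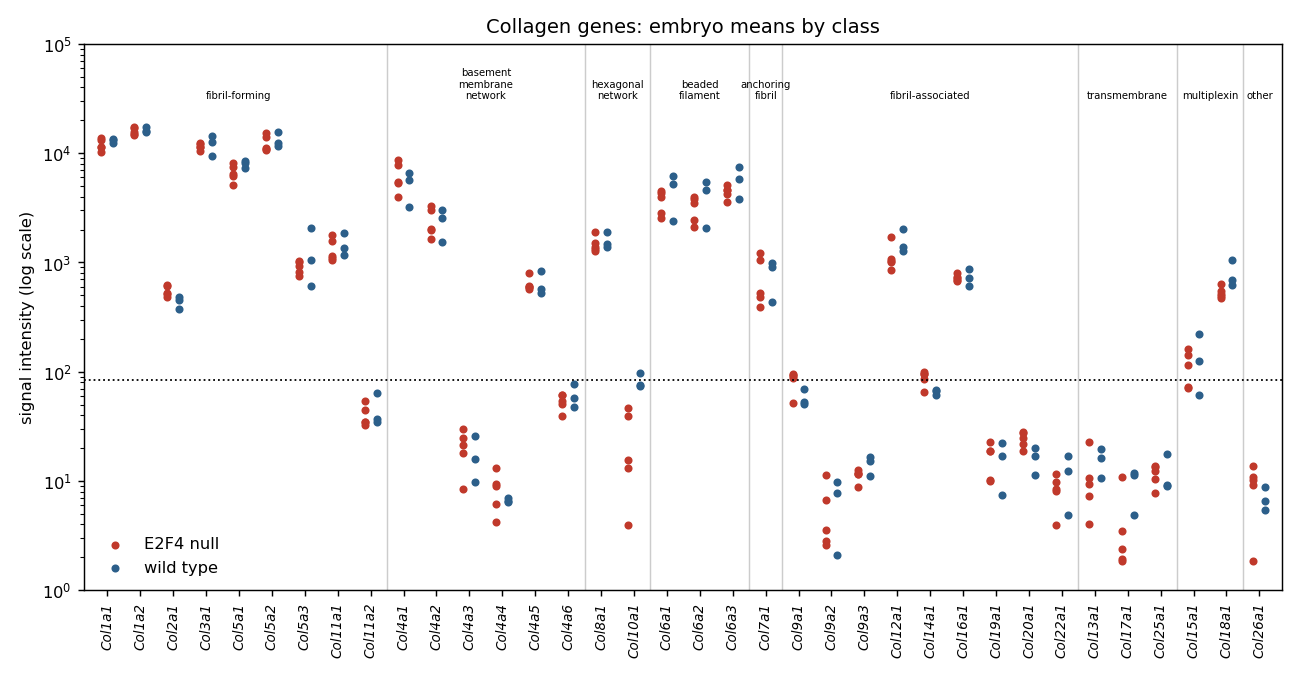
Signal intensity of the 36 collagen genes on a log axis, grouped by structural class along the horizontal axis, with 1 point per embryo (E2F4 null and wild type) and a dotted line at the filter signal of 83.2. The fibril-forming, beaded filament and Col4a1 and Col4a2 genes sit in the upper part of the plot, and the transmembrane genes lie between 6.55 and 13.2 on average.

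Between genotypes, 0 of the 20 tested collagen genes passed the limma test on embryo means with Benjamini-Hochberg adjustment at 0.05, where 0.0134% of all 7436 tested genes did. Adjusted p-values ran from 0.407 (Col18a1) to 0.996 (Col4a5). At an unadjusted p under 0.05 there were 2 genes, Col18a1 and Col2a1, where 8.73% of all tested genes passed. The log2 differences, E2F4 null minus wild type, ran from -0.53 to 0.33 with standard errors of 0.07 to 0.41. They were below 0 in 17 of 20 genes (15 with median centring or quantile normalization) with a median of -0.12, while 51.1% of all tested genes were below 0 with a median of -0.00. The count moved with single embryos. It was 10 of 20 without wild type embryo 1 (median -0.04), 11 without wild type embryo 2 (median -0.11) and 19 without wild type embryo 3 (median -0.15). Leaving out 1 null embryo gave 14 to 18 of 20.

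**Figure D2:**
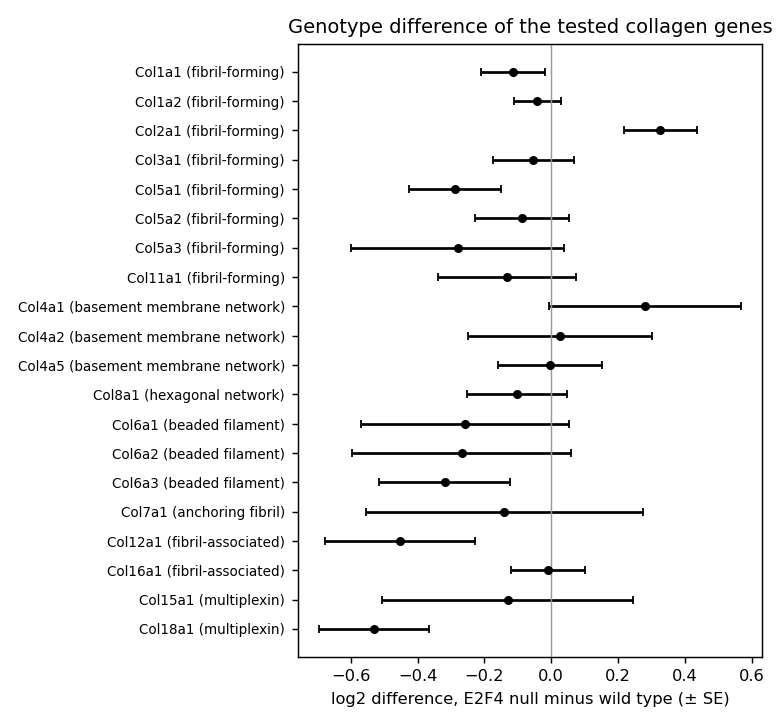
Log2 difference between E2F4 null and wild type embryo means (horizontal axis, points with standard error bars) for the 20 tested collagen genes, listed from top to bottom by class. The points run from -0.53 for Col18a1 to 0.33 for Col2a1, and 17 of 20 lie left of 0.

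Col2a1, the chain of cartilage collagen type II, was the 1 tested member whose embryo groups did not overlap. Its signals were 604, 514, 621, 526 and 487 in null embryos 1 to 5, against 374, 482 and 454 in wild type embryos 1 to 3. All null embryos lay above all wild type embryos, the closest being null embryo 5 and wild type embryo 2. Such separation in the upward direction was found for 2.95% of all tested genes, and in either direction for 6.66%. The mean was 550 ± 58.5 in null embryos (SD, n = 5) and 437 ± 56.1 in wild type embryos (n = 3). The log2 difference of 0.33 (SE 0.11) did not pass, with a limma adjusted p = 0.429. Sox9, which activates Col2a1 in chondrocytes, gave 101, 108, 179, 180 and 183 in null embryos, against 173, 78.2 and 219 in wild type embryos, and its groups overlapped.

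Col18a1, a basement membrane collagen of the multiplexin group whose end fragment is endostatin, had the largest difference of the tested members. It gave 489, 514, 635, 554 and 470 in null embryos, against 1055, 627 and 697 in wild type embryos. Wild type embryo 1 stood well above the rest, and null embryo 3 lay above wild type embryo 2, so the groups overlapped. The log2 difference was -0.53 (SE 0.17, limma adjusted p = 0.407) and it shrank to -0.31 without wild type embryo 1. Fitting the 20 cultures with a random embryo term gave an adjusted p = 0.0385, and that fit called 80 genes overall in place of 1. The other Col18a1 probe set had a difference of -0.42 (adjusted p = 0.634).

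Col10a1, the collagen of hypertrophic chondrocytes, was too dim for the filter and separated the genotypes all the same. Its signals were 46.8, 39.4, 15.5, 3.97 and 13.1 in null embryos, against 73.6, 97.0 and 76.2 in wild type embryos. The 10 null cultures lay between 3.14 and 50.4 and the 10 wild type cultures between 59.2 and 106, with no overlap. In a fit of all 12393 genes without a filter the log2 difference was -1.42 (SE 0.35, limma adjusted p = 0.460). By embryo means, 2.7% of genes in that fit had all null embryos under all wild type embryos, and no such share was computed over cultures. All but 1 of the 8 embryo signals are under the filter signal of 83.2, and no detection call tells them from background.

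**Figure D3:**
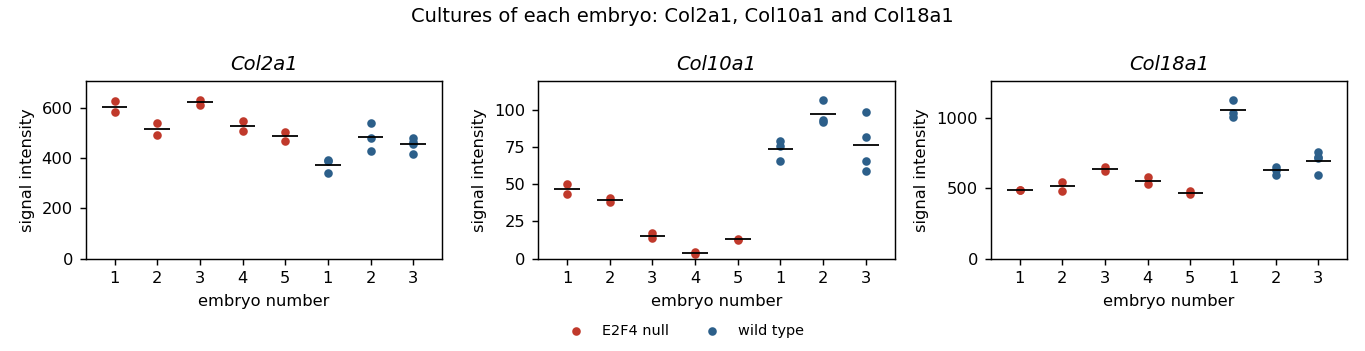
Signal intensity of each culture (points) and the embryo mean (bars) for Col2a1, Col10a1 and Col18a1, with E2F4 null embryos 1 to 5 left of wild type embryos 1 to 3. Null embryos are above wild type for Col2a1 and below for Col10a1, and wild type embryo 1 stands highest for Col18a1.

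The other multiplexin, Col15a1, had a log2 difference of -0.13 (SE 0.38) at a mean signal of 113 ± 41.4 in null embryos and 137 ± 81.6 in wild type embryos. Among fibril-associated collagens, which bind the surface of fibrils, Col12a1 gave 1023, 1721, 856, 1083 and 1002 in null embryos, against 1373, 2008 and 1268 in wild type embryos. Only null embryo 2 reached into the wild type range, and the log2 difference was -0.45 (SE 0.22, limma adjusted p = 0.615). Col16a1 averaged 723 ± 45.6 in null and 739 ± 132 in wild type embryos.

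While no member was called between genotypes, most differed between embryos of 1 genotype. By limma's F test over cultures, 16 of the 20 tested collagen genes differed among null embryos, where 27.8% of all tested genes did. Among wild type embryos 18 of 20 differed, where 51.4% of all tested genes did. Brighter genes are called more often, and with the filter at the 60th percentile the shares of all genes were 31.9% for null and 55.7% for wild type embryos. In 15 of 20 genes the embryos differed in both genotypes, against 22.8% of all tested genes. Embryo means held a median of 92.5% of the summed squared deviations within a genotype for collagen genes and 62.9% for all tested genes. These medians were not matched for signal, so a part of signal level in their difference was not tested. The collagen genes ranged from 44.0% (Col1a2) to 99.3% (Col6a1). Spread between cultures also enters the embryo part, so the share is not a measure of embryo differences alone. Col1a2 passed the F test in neither genotype. Cultures of 1 embryo differed by a median SD of 0.09 (log2) for collagen genes and 0.12 for all tested genes, again not matched for signal.

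Wild type embryo 2 was the extreme of its genotype across the array, as the highest or the lowest of the 3 wild type embryos for 82.7% of all tested genes. It was so for 20 of 20 collagen genes, near that share. It was highest for 12 genes, among them Col4a1, Col4a2, Col7a1, Col11a1 and Col12a1. It was lowest for 8, among them Col6a1, Col6a2, Col6a3, Col5a3 and Col3a1. Without it, 11 of 20 collagen genes differed between the remaining wild type embryos, where 16.6% of all genes did. The 7 that no longer passed were Col4a5, Col5a1, Col5a2, Col8a1, Col11a1, Col12a1 and Col16a1. Among null embryos the count stayed between 14 and 19 when 1 embryo was left out. No share of all tested genes is given for those fits, so the steady count cannot be called particular to collagen genes.

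**Figure D4:**
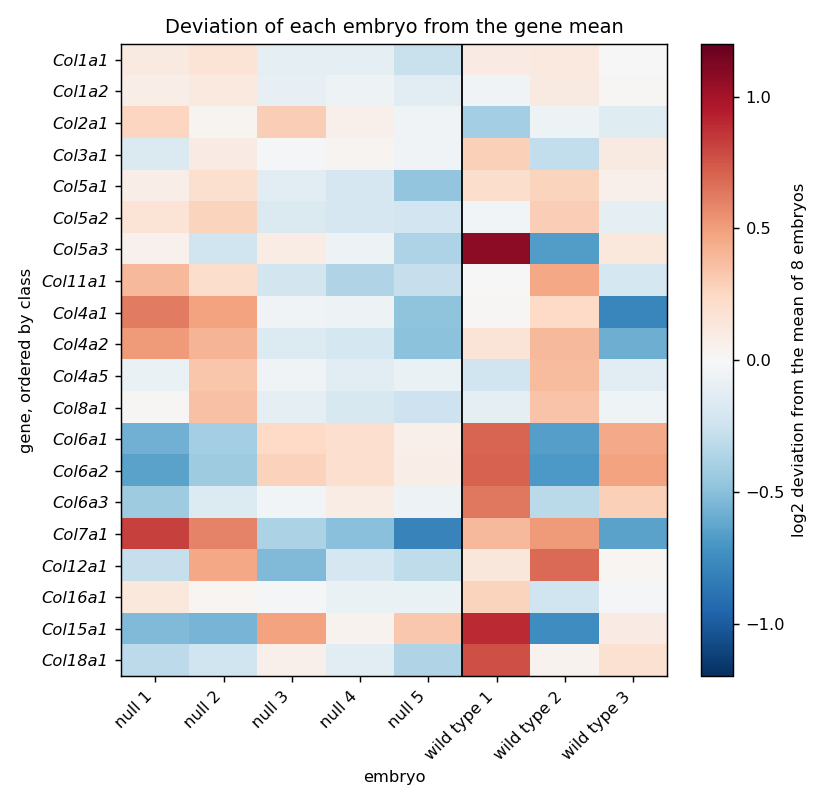
Log2 deviation of each embryo from the mean of the 8 embryos (colour) for the 20 tested collagen genes (vertical axis, by class), with E2F4 null embryos left of the line and wild type embryos right of it. Null embryos 1 and 2 and wild type embryo 2 are low for Col6a1, Col6a2 and Col6a3 and high for Col4a1, Col4a2 and Col7a1.

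The 3 chains of type VI collagen, the beaded filament around cells, moved together. Col6a1 gave 2543, 2858, 4472, 4368 and 3956 in null embryos 1 to 5, against 6161, 2390 and 5204 in wild type embryos 1 to 3. Col6a2 gave 2124, 2458, 4009, 3791 and 3499 in null embryos, against 5405, 2048 and 4611 in wild type embryos. Null embryos 1 and 2 and wild type embryo 2 formed a low set for both genes, apart from the other 5 embryos. Col6a3, the largest chain, gave 3556, 4259, 4655, 5097 and 4574 in null embryos, against 7437, 3811 and 5837 in wild type embryos. It kept the same 3 embryos lowest with smaller gaps. The highest embryo exceeded the lowest by 1.76, 1.89 and 1.43-fold for Col6a1, Col6a2 and Col6a3 among null embryos and by 2.58, 2.64 and 1.95-fold among wild type embryos. The F test adjusted p for Col6a1 was 2.26e-09 among null and 2.25e-14 among wild type embryos. Because embryos fell into separate sets, no pooled correlation of these chains is given. The genotype differences were -0.26, -0.27 and -0.32 (SE 0.31, 0.33 and 0.20), and those of Col6a1 and Col6a2 were 0.01 and 0.00 without wild type embryo 1.

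The common chains of type IV collagen were high in the embryos that were low for type VI. Col4a1, with Col4a2 the common chain of basement membranes, gave 8591, 7795, 5397, 5350 and 3979 in null embryos, against 5637, 6567 and 3245 in wild type embryos. Col4a2 gave 3273, 3039, 2044, 1980 and 1631 in null embryos, against 2560, 3002 and 1527 in wild type embryos. Both were highest in null embryos 1 and 2 and lowest in wild type embryo 3, and the order of the 8 embryos was the same for both genes. Across embryos r was 0.96 (exact two-sided permutation p = 2.5e-05, the smallest that 8 embryos allow, adjusted p = 9.92e-05 over 8 pairs). Spearman's rho was 1 (exact p = 4.96e-05, adjusted p = 0.000198), and r was 0.93 without null embryo 1 and wild type embryo 3. With the deviations from each genotype's mean, r was 0.996, and with the next brightest Col4a1 probe set it was 0.988, Col4a2 having 1 probe set. The genotype differences were 0.28 (SE 0.29) for Col4a1 and 0.02 (SE 0.28) for Col4a2, both within the spread between embryos.

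Col4a5, an X-linked chain of basement membranes, did not share that order. It gave 597, 799, 611, 575 and 597 in null embryos, against 530, 829 and 575 in wild type embryos. Embryo 2 of each genotype was the highest, and the genotype difference was -0.00 (SE 0.16). Col7a1, which forms the anchoring fibrils that tie basement membrane to dermis, had the widest spread of the tested collagen genes among null embryos. It gave 1224, 1046, 522, 481 and 388 in null embryos, against 905, 988 and 435 in wild type embryos. Null embryos 1 and 2 and wild type embryos 1 and 2 lay at 905 or above and the other 4 at 522 or below, a 3.15-fold range among null and a 2.27-fold range among wild type embryos. The genotype difference was -0.14 (SE 0.41).

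**Figure D5:**
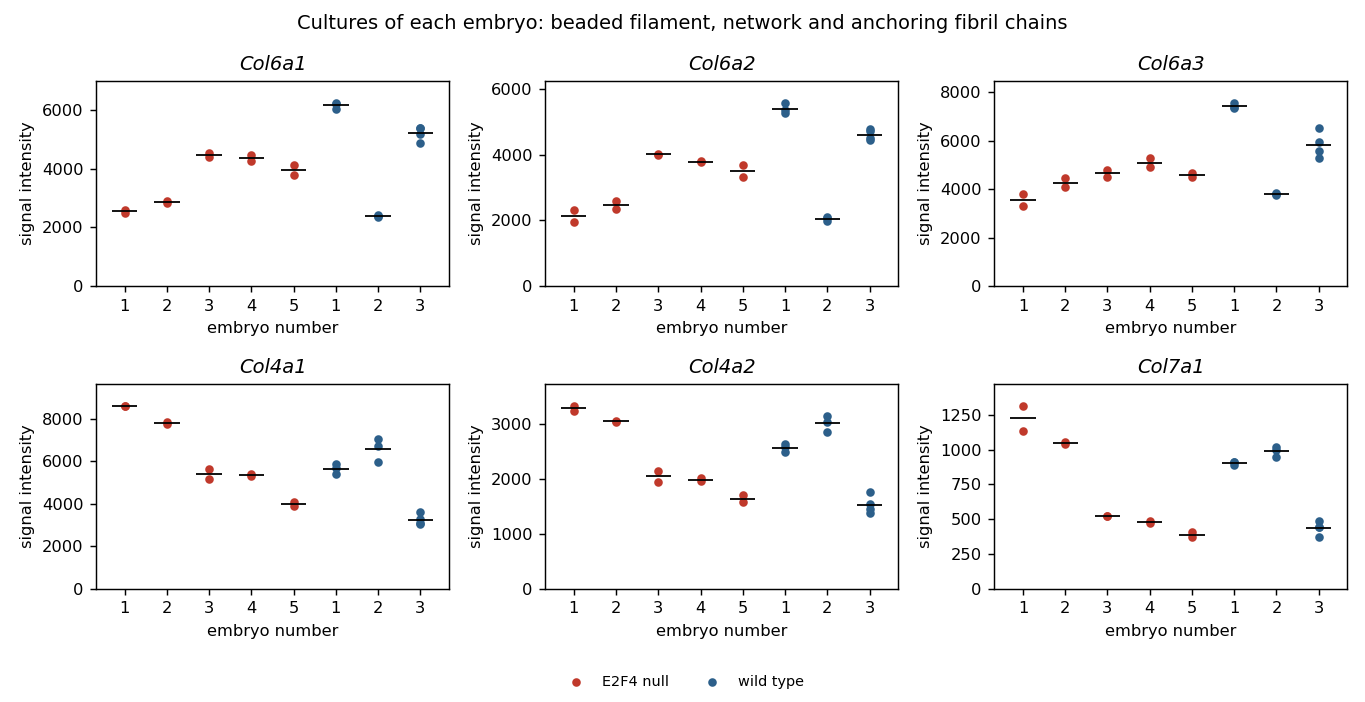
Signal intensity of each culture (points) and the embryo mean (bars) for 3 beaded filament chains, the 2 common type IV chains and Col7a1, with E2F4 null embryos 1 to 5 left of wild type embryos 1 to 3. Cultures of 1 embryo lie close together, and the embryos low for Col6a1 (null 1 and 2, wild type 2) are among the high ones for Col4a1 and Col7a1.

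By its brightest probe set, Col1a1 ranged 1.34-fold among null and 1.08-fold among wild type embryos. The main chains of type I collagen gave 12060 ± 1457 in null embryos and 13002 ± 556 in wild type embryos for Col1a1 (SD, n = 5 and 3). For Col1a2 they were 15902 ± 1219 in null embryos and 16333 ± 924 in wild type embryos. For Col1a1 the embryos were 13270, 13838, 11445, 11458 and 10292 among null and 13266, 13378 and 12364 among wild type. Null embryo 5 was the lowest of the 8 and null embryo 2 the highest. Col1a1 differed between null embryos (F test adjusted p = 0.000452) and did not pass between wild type embryos (0.121, or 0.00452 with quantile normalization), while Col1a2 passed in neither (0.211 for null and 0.277 for wild type). The dimmer Col1a1 probe set ordered the embryos otherwise, with 694, 584, 728, 1055 and 625 in null embryos, against 897, 573 and 774 in wild type embryos. It passed in both genotypes (F test adjusted p = 0.0348 for null and 0.0200 for wild type). Embryo means of the brightest Col1a1 and Col1a2 probe sets correlated at r = 0.86 (exact two-sided permutation p = 0.00789, adjusted p = 0.0126) and rho = 0.98 (p = 0.000397, adjusted p = 0.00106). The relation held at r = 0.74 without null embryos 3 and 5, but r was 0.09 (adjusted p = 0.828) with the next brightest probe sets of both genes.

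Type III collagen, which forms mixed fibrils with type I in soft tissue, gave a correlation with Col1a1 that changed with the probe sets and passed in no setting. Col3a1 gave 10394, 12471, 11511, 12030 and 11340 in null embryos, against 14276, 9487 and 12633 in wild type embryos. Wild type embryos 1 and 2 were the highest and the lowest of all 8. The dimmer Col3a1 probe set gave 970, 921, 1312, 1234 and 1276 in null embryos, against 1709, 635 and 1366 in wild type embryos. There null embryos 1 and 2 and wild type embryo 2 were the 3 lowest. It differed between null embryos (F test adjusted p = 0.000301), where the brightest did not pass (0.0667). By the brightest probe sets the correlation of Col3a1 with Col1a1 was r = 0.01 (exact two-sided p = 0.973) and rho = -0.02 (p = 0.977), and r was -0.14 without null embryos 3 and 5. With quantile normalization r was 0.32 (adjusted p = 0.436), and with the next brightest probe sets it was 0.65 (adjusted p = 0.130). The genotype difference of Col3a1 was -0.05 (SE 0.12), and that of Col1a1 was -0.12 (SE 0.10).

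Types V and XI collagen are minor fibrillar chains that set the width of fibrils. Col5a1 gave 7468, 8098, 6431, 6154 and 5088 in null embryos, against 8193, 8506 and 7390 in wild type embryos. Null embryos 3 to 5 lay below all wild type embryos and null embryos 1 and 2 among them (log2 difference -0.29, SE 0.14, limma adjusted p = 0.607). Col5a2 gave 14125, 15187, 11156, 10961 and 10750 in null embryos, against 12335, 15496 and 11708 in wild type embryos. Null embryos 1 and 2 and wild type embryo 2 were the 3 highest, as they were for Col11a1. The second Col5a2 probe set did not show this, with 3172, 2674, 3303, 2629 and 2584 in null embryos, against 3130, 2414 and 2431 in wild type embryos. Col11a1 gave 1779, 1572, 1158, 1050 and 1111 in null embryos, against 1350, 1874 and 1165 in wild type embryos.

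Col5a3, another type V chain, had the widest wild type range of the fibril-forming genes. It gave 1008, 819, 1032, 934 and 747 in null embryos, against 2058, 606 and 1062 in wild type embryos. Wild type embryos 1 and 2 bracketed all null embryos, 3.39-fold apart, and the null range was 1.38-fold. Col15a1 had a range of 2.30-fold among null and 3.65-fold among wild type embryos. The one tested hexagonal network gene, Col8a1 of vessel and eye membranes, gave 1482 ± 264 in null embryos and 1592 ± 282 in wild type embryos, with embryo 2 of each genotype the highest.

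Of the 8 fibroblast markers, 3 were lowest and 2 were highest in the embryos low for type VI collagen, null embryos 1 and 2 and wild type embryo 2. Pdgfra, Lum and Dcn were the lowest, Vim and Fn1 the highest, and Pdgfrb, Thy1 and S100a4 did not set those embryos apart. No share of all tested genes that set those 3 embryos apart was computed, so the pattern cannot be called particular to the genes named here. Within the null genotype, embryos 1 and 2 were the highest or the lowest for 44.7% and 50.4% of all tested genes. For wild type embryo 2 that share was 82.7%. Pdgfra gave 197, 339, 908, 1110 and 1368 in null embryos, against 852, 191 and 1200 in wild type embryos. Lum gave 202, 133, 917, 1007 and 1408 in null embryos, against 597, 81.8 and 2220 in wild type embryos. Fn1, the matrix protein fibronectin, gave 16093, 15634, 11587, 11201 and 11413 in null embryos, against 14422, 16590 and 13532 in wild type embryos. Vim, the intermediate filament vimentin, gave 25541, 24937, 21607, 24224 and 22031 in null embryos, against 20563, 26401 and 23947 in wild type embryos. Acta1, skeletal muscle actin, was highest in the same 3 embryos, at 1149, 3143, 270, 235 and 211 in null embryos, against 608, 3870 and 370 in wild type embryos. The 5 skeletal muscle markers summed to 397 to 3419 in null embryos and to 510 to 4215 in wild type embryos, mostly through Acta1. Myod1, Myog and Ckm did not pass the filter. Des passed it and was also highest in those 3 embryos, at 239, 221, 107, 113 and 118 in null embryos, against 136, 271 and 75.4 in wild type embryos. The epithelial keratin Krt18 gave 213, 206, 108, 110 and 103 in null embryos, against 93.9, 193 and 60.7 in wild type embryos, again highest in those 3. Krt19 did not follow fully, with 451, 361, 211, 287 and 311 in null embryos, against 170, 294 and 201 in wild type embryos. Ccn2, a matrix regulator induced by TGF-beta, gave 17446, 17976, 9635, 9477 and 8299 in null embryos, against 13027, 17989 and 10748 in wild type embryos. It was picked from 22 tested regulators after its values were seen. On the same list Cebpb was lowest in those 3 embryos, at 958, 1023, 1416, 1378 and 1360 in null embryos, against 1690, 1084 and 1653 in wild type embryos. Sox9 was also lowest in them, Tgfb1 did not set them apart, and the rest of the list was not counted. In bulk cultures fewer cells of a type and less RNA per cell cannot be told apart, and the part of these genes in the collagen differences was not tested.

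Genes that make, bind and regulate collagen were compared in the same fit. Of 35 genes for collagen biosynthesis and processing, 26 were tested, 19 below 0 and 7 above with a median of -0.07, and 0 passed (3 at an unadjusted p under 0.05, where 8.73% of all tested genes passed). Plod3, which hydroxylates and glycosylates collagen lysines, gave 1270, 1223, 1201, 1299 and 1213 in null embryos, against 1738, 1486 and 1698 in wild type embryos. All null embryos were below all wild type embryos (3.71% of all tested genes), and the difference was -0.39 on the log2 scale (SE 0.07, limma adjusted p = 0.190). Pcolce2, an enhancer of procollagen cleavage, gave 759, 651, 707, 804 and 778 in null embryos, against 1103, 986 and 1001 in wild type embryos. Its difference was -0.47 (SE 0.08, adjusted p = 0.190), again without overlap. Without wild type embryo 2, Plod3 passed with a limma adjusted p = 0.0388, in a fit that called 11 of all 7436 tested genes in place of 1.

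Of 12 collagen receptors 8 were on the array and 5 were tested, with a median of -0.00 and 0 called (0 at an unadjusted p under 0.05). Mrc2, an endocytic collagen receptor, had a difference of -0.20 (adjusted p = 0.697), and Ddr2, a receptor kinase for fibrillar collagen, of 0.18 (adjusted p = 0.832). Of 29 regulators of matrix genes 22 were tested, 17 below 0 and 5 above with a median of -0.16, and 0 passed (5 at an unadjusted p under 0.05, against the same 8.73%). Fli1, a transcription factor that represses type I collagen genes, had a difference of 0.48 (adjusted p = 0.331). Ltbp1, which binds latent TGF-beta, had a difference of -0.44 (adjusted p = 0.363). Between null embryos 12 of 26 biosynthesis genes and 14 of 22 regulators differed, where 27.8% of all tested genes did. Between wild type embryos 18 of 26 and 17 of 22 differed, where 51.4% of all tested genes did.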

How the data were processed

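Each of the 20 cultures was measured on 1 array. The authors deposited linear MAS5 signal intensities for each probe set, per the submitters' processing notes. No version, scaling target or detection call is recorded in the sources used. The 2% trimmed mean was 500.2 on every array, so scaling hides a change shared by all genes, and the arrays were not rescaled. The number of arrays and embryos limits the precision.

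The table held 22690 probe sets (64 controls), of which the platform annotation gave 20380 a single symbol and 691 several. Of the 20380, 20351 matched in the RefSeq gene table of GRCm38.p6, which updated the symbols. Values were converted to log2(signal + 16) and the cultures of an embryo were averaged, so fold changes understate low genes. Each gene was its brightest probe set, and genes under the 40th percentile were dropped, leaving 7436 of 12393. The genotype comparison used limma 3.58.1 under R 4.3.3 (eBayes with trend, two-sided, Benjamini-Hochberg over all tested genes, threshold 0.05). Embryos were compared by limma's F test over cultures. Between genotypes the replicates are embryos, while the F test sets differences between embryos against the spread between cultures, which may be technical. The fits were also run on simulated data. There the genes changed between genotypes were given a small spread between embryos, so that run does not give the power for collagen genes.

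Of 14 chain pairs listed, the 8 with both genes tested were correlated over the 8 embryos. No relation is read from a pooled r where, for either gene, the largest gap between neighbouring embryos exceeded 33.3% of the range. Gaps to the highest and to the lowest embryo were not counted, and the rule was chosen after the data were seen. Same-numbered embryos had correlated deviations of 0.0863, 0.639 and 0.423, against -0.631 to 0.389 for null and wild type embryos of different numbers. The labels give no shared litter, so the numbers were not taken as pairs. Whether they mark a shared batch was not tested.

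The members, lists and tests were chosen with earlier results of these data known. Named were all collagen genes, E2f4, cell type markers and the 2 genes with the smallest p in each other list. Ccn2, Cebpb and Tgfb1 were named after their values were seen. Alternatives covered the pseudocount, filter, normalization, probe sets, blocks, cultures used, variance model and each embryo left out.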

Additional observations from a re-analysis of the deposited data

Results flagged for a closer look

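Col4a5 had a null embryo 2 signal of 799, against 575 to 611 in the other null embryos. It was singled out because its gap to the nearest embryo was 0.811 of the null range on the log2 scale, above Dixon's critical value for 5 samples. Of 20 collagen genes looked at this way it was the 1 that passed, and chance gives about 1 in 20 such results. Wild type embryo 2 was likewise the highest of its genotype, at 829.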

How the results depend on the processing

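The count of collagen genes called between genotypes was 0 under every alternative run except a random block for the embryo over cultures, which called 1 (Col18a1). For the 3 other lists together that block called 4 genes (Loxl3, Ltbp1, Pcolce2 and Plod3), where it called 80 of all 7436 tested genes. The culture number as a replicate block, with the embryo as a random block, called 2 (Loxl3 and Pcolce2), where it called 38 of all genes. Leaving out embryos called 0 to 1. The 1 came without wild type embryo 2, where 11 of all genes were called. The main fit called 1 of all genes. With the embryo number as a replicate block, which rests on null embryos 1 to 3, 0 of 20 collagen genes were called (lowest adjusted p = 0.397) and 10 of 20 were below 0. Of 239 log2 differences under the settings that kept all embryos, 223 kept direction and call, 15 turned direction and 1 gained a call. Col16a1 became 0.00067 with quantile normalization, 0.0034 with median centring, 0.042 with the embryo number block, and 0.036 with the culture number block and with cultures 1 and 2 only. Col4a5 became 0.014 with quantile normalization, 0.0080 with median centring, 0.064 with the embryo number block, and 0.0038 with the culture number block and with cultures 1 and 2 only. The embryo number block also gave 0.046 for Col11a1, 0.0085 for Col1a2, 0.033 for Col5a2, 0.26 for Col7a1 and 0.018 for Col8a1. The cause was not tested.

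Leaving out 1 embryo at a time turned 24 of 160 differences, with ranges of -0.28 to 0.058 for Col11a1, -0.54 to 0.27 for Col15a1, -0.13 to 0.12 for Col16a1, -0.077 to 0.00090 for Col1a2, -0.22 to 0.073 for Col3a1, -0.021 to 0.49 for Col4a1, -0.26 to 0.22 for Col4a2, -0.13 to 0.19 for Col4a5, -0.17 to 0.035 for Col5a2, -0.70 to 0.17 for Col5a3, -0.67 to 0.0083 for Col6a1, -0.69 to 0.0021 for Col6a2, -0.51 to 0.073 for Col7a1 and -0.20 to 0.038 for Col8a1. The number of collagen genes that differed between wild type embryos ran from 11 to 16, and between null embryos from 14 to 19. A share of all tested genes is given for wild type embryo 2 left out alone (16.6%). The Col1a1 and Col3a1 correlation became -0.053 with deviations from genotype means and 0.65 with the next brightest probe sets. Col3a1 and Col5a2, whose embryos fall into separate sets so that no relation is read, turned from -0.39 to 0.39 by the next brightest probe sets. Col1a1 gained a call between wild type embryos with quantile normalization, as did Col3a1 between null embryos. Signals near background, as for Col10a1, limit the rest.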
